A study of Mus musculus with 72 samples.

Results

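The genes described here are 10 members of the circadian clock other than the Period genes: Arntl (Bmal1), Clock, Npas2, Cry1, Cry2, Nr1d2, Ciart, Tef, Hlf and Nfil3. A probe set, a group of short DNA probes that reports a transcript, was taken for a member where the array's annotation gives it that symbol alone. All 10 were found among 18820 symbols carried in this way, on 35556 probe sets. Nr1d2 and Ciart each had 2 probe sets, and the brighter of them over the 72 arrays was used. The annotation gives both Ciart probe sets the same transcripts, but the 10 probe sets with the nearest numbers belong to genes of chromosome 10 for the brighter one and of chromosome 3, where Ciart lies, for the other. Whether the brighter one reports Ciart itself or a copy of its sequence was not checked, so values of the other are given beside it. Hippocampal RNA came from male C57BL/6J mice, 2 months old, in 8 groups of 9, with 1 array for each mouse and both of its hippocampi. All mice were handled on 3 days and lived in 12 h of light and 12 h of dark. The groups CC30, CC4 and CC12 were handled and not trained. FC30, FC4, FC12 and FC24 were trained by contextual fear conditioning, in which a shock to the feet is given in a chamber that the mouse comes to remember. The shock was of 1.5 mA, took 2 s and ended 2.5 min after the mouse was put in the chamber. These trained groups were dissected 30 min, 4 h, 12 h and 24 h later. RT30 mice were trained, put back in the chamber for 5 min at 24 h, and dissected 30 min after that. Training took place at ZT3 (Zeitgeber time, hours after lights on). Dissections are therefore taken here as ZT3.5 for CC30, FC30 and RT30, ZT7 for CC4 and FC4, ZT15, in the dark, for CC12 and FC12, and ZT3 for FC24. Each untrained group was dissected within 30 min of the time of day of its trained group. Mice were housed singly, per the methods. The sources used do not say whether they shared a litter, and p-values measure the spread between these mice.

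The clock of mammalian cells is a loop of transcription and repression. ARNTL pairs with CLOCK, or in the forebrain with NPAS2, binds E-boxes in DNA and switches on the Period and Cryptochrome genes, whose proteins then block it. CIART is a further repressor of the pair. In an interlocking loop the nuclear receptor NR1D2 (REV-ERB beta) represses Arntl through ROR elements. TEF and HLF activate genes with D-boxes, which NFIL3 represses at the same sites. The hippocampus holds such a clock outside the master clock of the suprachiasmatic nucleus.

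Promoters are shown for 4 members whose levels differed between times of day, since the elements of the loop can be read in them. Each is a RefSeq window of GRCm38.p6, written 5′ to 3′ on the strand of the gene, from 250 bases before the transcript start to 50 after it. The capitals mark the letters searched on both strands, CACGTG or its variant CACGTT (E-boxes) and GTAGGTCA or GTAGGTTA (ROR elements). The Ciart window at chr3:95882179-95882478, minus strand, holds 3 copies of CACGTG, which begin 116, 58 and 44 bases before the start. The Cry1 window at chr10:85185005-85185304, minus strand, holds CACGTG at 60 bases before the start and CACGTT, on the other strand, at 79. In Tef (chr15:81802423-81802722, plus strand) CACGTG begins 127 bases before the start. The Arntl window at chr7:113207261-113207560, plus strand, has GTAGGTTA at 7 bases before the start and GTAGGTCA at base 30 after it.
Ciart: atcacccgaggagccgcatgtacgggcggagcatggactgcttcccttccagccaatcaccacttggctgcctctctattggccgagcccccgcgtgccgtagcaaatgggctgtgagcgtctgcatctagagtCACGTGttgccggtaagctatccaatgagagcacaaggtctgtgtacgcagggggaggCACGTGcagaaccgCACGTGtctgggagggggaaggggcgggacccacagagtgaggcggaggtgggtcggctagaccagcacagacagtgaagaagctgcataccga
Cry1: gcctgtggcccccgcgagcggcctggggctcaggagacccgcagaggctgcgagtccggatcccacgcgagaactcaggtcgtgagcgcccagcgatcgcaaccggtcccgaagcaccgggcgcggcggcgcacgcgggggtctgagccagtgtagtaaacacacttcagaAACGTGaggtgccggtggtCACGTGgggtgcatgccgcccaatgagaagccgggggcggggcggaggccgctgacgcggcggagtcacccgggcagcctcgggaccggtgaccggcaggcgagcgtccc
Tef: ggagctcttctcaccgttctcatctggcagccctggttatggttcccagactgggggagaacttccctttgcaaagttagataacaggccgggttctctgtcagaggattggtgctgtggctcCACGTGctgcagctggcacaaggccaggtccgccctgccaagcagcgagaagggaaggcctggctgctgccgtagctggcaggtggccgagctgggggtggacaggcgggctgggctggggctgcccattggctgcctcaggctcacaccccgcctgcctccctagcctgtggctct
Arntl: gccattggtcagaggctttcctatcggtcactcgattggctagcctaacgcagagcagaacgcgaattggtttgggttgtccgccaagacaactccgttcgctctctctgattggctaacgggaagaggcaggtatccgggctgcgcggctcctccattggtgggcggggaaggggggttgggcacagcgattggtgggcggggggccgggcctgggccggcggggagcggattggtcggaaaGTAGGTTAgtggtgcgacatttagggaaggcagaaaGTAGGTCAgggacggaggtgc

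All 10 members had a window, 14 in all with alternative starts. Cry2 holds CACGTT at 166 bases before its start, the other Tef window CACGTG at 138, and Nfil3 GTAGGTCA, on the other strand, at 12. Hlf holds TGACGTCA, the cyclic AMP element, 9 bases before its start. The windows of Clock, Npas2 and Nr1d2 hold none of the letters searched, and no window of a member holds the D-boxes TTATGTAA or TTACGTAA. Of 32851 RefSeq windows of this length, 7.15% hold CACGTG, 4.68% CACGTT, 0.621% GTAGGTCA, 0.317% GTAGGTTA, 1.79% TGACGTCA, 0.938% TTATGTAA and 0.119% TTACGTAA. A match is a run of letters and not a measured binding site.

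Most of these genes differed between times of day, and none was called between trained and untrained mice of the same time. Over the 3 untrained groups, 6 of 10 members differed (Arntl, Cry1, Nr1d2, Ciart, Tef and Hlf), against 5.25% of all probe sets. Over FC30, FC4 and FC12, 7 of 10 differed (Arntl, Npas2, Cry1, Nr1d2, Ciart, Tef and Nfil3), against 4.96% of all. Those trained groups also differ in time since training, which cannot be told apart from time of day. The members were chosen with earlier results of these data known, so these counts beside the whole array do not test the list. The threshold for a call was an adjusted p of 0.1 in limma (Benjamini-Hochberg, across the whole array). The values are log2 RMA values from which the first principal component of the 72 arrays was subtracted, and differences are on that log2 scale. Between pairs of times, 5 members differed in CC12 against CC30 (3.5% of all probe sets) and 5 in CC12 against CC4 (5.01%). In trained mice, 5 differed in FC12 against FC30 (1.37%), 4 in FC12 against FC4 (4.22%) and 2 in FC4 against FC30 (0.596%). With local false discovery rates, written here after the kind the authors used, 1 member was left in CC12 against CC30 (Ciart), 1 in FC12 against FC30 (Arntl), 0 in FC12 against FC4 and 0 in FC4 against FC30. All probe sets gave 44, 99, 0 and 0 there, so no member could be called in FC12 against FC4 or FC4 against FC30. Between untrained mice of the light and dark phase, the authors report far more probe sets, a count the version written here did not reproduce. It therefore does not show which members the authors' own rates would call. FC12 against FC30 also fell to 3 without subtraction of the component, and to 3 without the 6 arrays that stood apart from their groups on the first or second component. The probe sets called over the whole array fell from 487 to 254 and to 287. None of the 10 was called in CC4 against CC30 (0.0731% of all), with Ciart read on its brighter probe set. The other Ciart probe set narrowly passed there. In that comparison 3 of the 10 had an unadjusted p under 0.05 in limma, as did 2209 of all 35556 probe sets. The median size of the members' differences was 0.11 in CC12 against CC30, where that of all probe sets was 0.0455, and 0.141 against 0.0412 in FC12 against FC30. Comparisons that share a group of mice, such as CC12 against CC30 and against CC4, are not independent of each other.

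**Figure D1:**
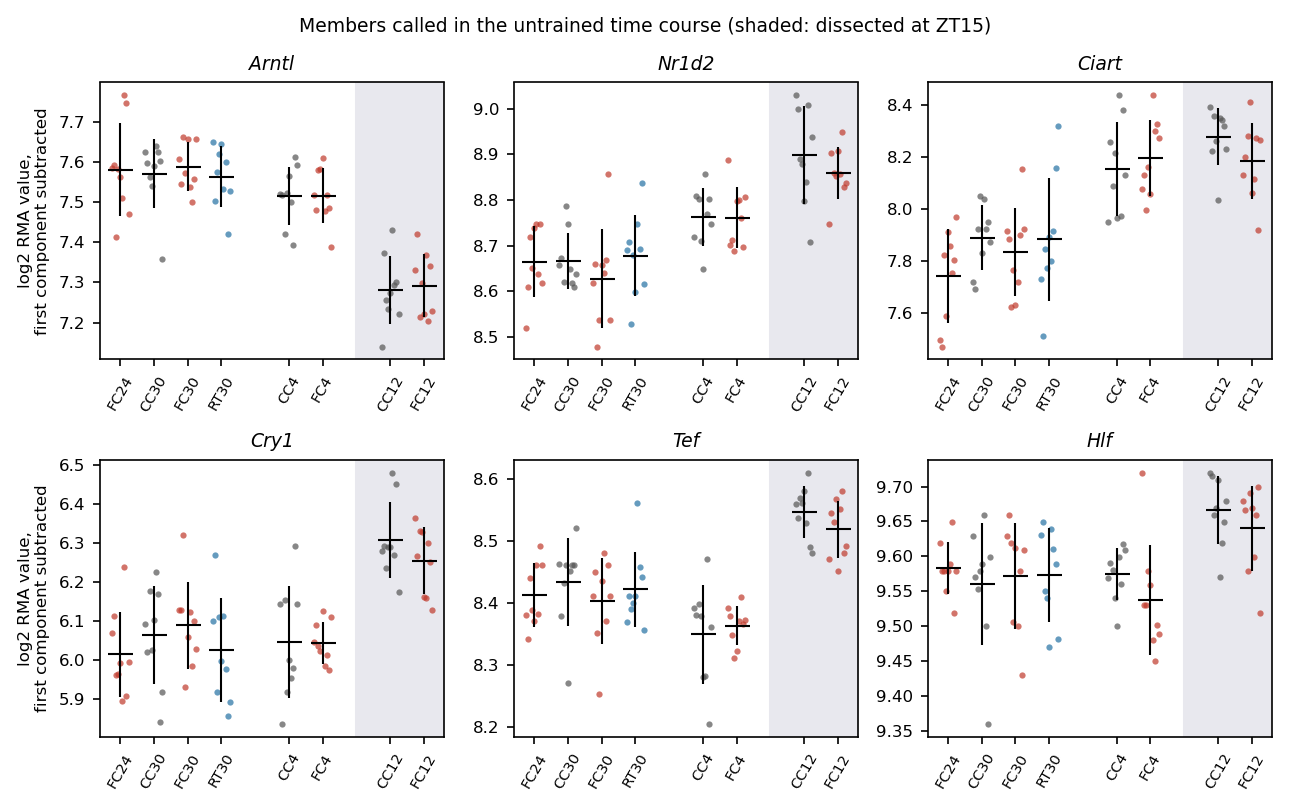
Log2 RMA values with the first component subtracted, for the 6 members called in the untrained time course, in 72 mice. Each point is a mouse (grey untrained, red trained, blue retrieval), black lines give the mean and SD of 9 mice, and the shaded groups were dissected at ZT15. Arntl is low in both shaded groups, and the other 5 genes have their highest untrained mean there.

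Arntl, the activator on which the loop depends, was lower at ZT15 than at either light phase time, with and without training. In CC30 its log2 values ran from 7.36 over a median of 7.60 to 7.64. CC4 mice had 7.39, 7.52 and 7.61, and CC12 mice 7.14, 7.27 and 7.43. Of the CC30 mice, 1 reached into the range of CC12, and the CC4 group overlapped it at its lower end. Trained mice had 7.50, 7.57 and 7.66 in FC30, 7.39, 7.52 and 7.61 in FC4, and 7.20, 7.30 and 7.42 in FC12. FC12 and FC30 did not overlap, which held for 0.292% of all probe sets. From CC30 to CC12 Arntl fell by 0.29 (SE 0.04, 1.22-fold, adjusted p = 8.54e-04, local false discovery rate 0.273), and from CC4 to CC12 it fell by 0.24 (adjusted p = 0.00161). From FC30 to FC12 it fell by 0.30 (SE 0.03, 1.23-fold, adjusted p = 1.64e-04), and from FC4 to FC12 it fell by 0.22 (adjusted p = 0.00244). In each of these, 9 of 9 mice at ZT15 lay below the mean of the other group. FC24 and RT30, dissected near the time of day of CC30, had means of 7.58 ± 0.12 and 7.56 ± 0.08 (SD, n = 9), beside 7.57 ± 0.09 in CC30. Ordered by their means, the 6 light phase groups lay between 7.52 and 7.59 and the 2 dark phase groups at 7.28 and 7.29.

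Clock and Npas2 encode the partners of ARNTL, and neither was called in the untrained course. The 8 group means of Clock lay between 9.14 and 9.18, a range of 0.039, and the gene had adjusted p = 0.968 in the untrained and 0.696 in the trained course. For Npas2, values ran from 8.90 over 9.28 to 9.41 in CC30, from 9.26 over 9.36 to 9.48 in CC4, and from 9.15 over 9.33 to 9.42 in CC12. These untrained groups overlapped throughout (adjusted p = 0.576). In trained mice Npas2 had its highest mean at ZT7, with 9.18, 9.42 and 9.51 in FC4, and a lower one at ZT15, with 9.01, 9.22 and 9.31 in FC12. FC30 mice had 9.00, 9.21 and 9.38. From FC4 to FC12 the gene fell by 0.20 (SE 0.05, adjusted p = 0.0281, 9 of 9 mice). FC4 lay 0.18 above FC30, which did not pass (adjusted p = 0.12, 8 of 9 mice). The trained course had adjusted p = 0.0201 and the untrained 0.576, yet the test of whether the courses differ gave an unadjusted p of 0.107 and an adjusted p of 0.876 in limma. No difference between trained and untrained courses is thus shown for Npas2.

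Ciart, a repressor, had the largest differences of the 10 members between ZT3.5 and ZT15. Its values ran from 7.69 over 7.92 to 8.05 in CC30, from 7.95 over 8.13 to 8.44 in CC4 and from 8.03 over 8.32 to 8.39 in CC12. Only the lowest CC12 mouse lay within the range of CC30, while CC12 lay wholly within the range of CC4. In trained mice they were 7.62, 7.88 and 8.15 in FC30, 7.996, 8.16 and 8.44 in FC4 and 7.92, 8.20 and 8.41 in FC12. CC12 lay 0.39 above CC30 (SE 0.05, 1.31-fold, adjusted p = 7.38e-04). FC12 lay 0.35 above FC30 (SE 0.07, 1.27-fold, adjusted p = 0.0205), and FC4 0.36 above it (SE 0.07, adjusted p = 0.0367). In all 3 comparisons, 9 of 9 mice were above the mean of the earlier time. CC4 lay 0.27 above CC30 (95% interval 0.12 to 0.41), also in 9 of 9 mice, with adjusted p = 0.396. The other Ciart probe set, with a mean of 6.66 for CC30 mice, 7.08 for CC4 and 7.05 for CC12, gave 0.43 for CC4 against CC30 (adjusted p = 0.0967, called in 5 of 13 settings). It gave 0.40 in CC12 against CC30 (adjusted p = 0.00737), 0.43 in FC12 against FC30 (adjusted p = 0.00144) and 0.33 in FC4 against FC30 (adjusted p = 0.0912). On the brighter probe set FC24 mice had the lowest mean of the 8 groups, 7.74 ± 0.18 (SD, n = 9), and RT30 mice spread from 7.51 to 8.32, further than any other group.

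Cry1, a Cryptochrome that blocks the activator pair, was higher at ZT15 than at both light phase times in untrained mice. Its values were 5.84, 6.09 and 6.22 (lowest, median and highest) in CC30, 5.83, 6.00 and 6.29 in CC4, and 6.17, 6.29 and 6.48 in CC12. CC12 was higher than CC30 by 0.24 (SE 0.05, adjusted p = 0.0178) and than CC4 by 0.26 (SE 0.06, adjusted p = 0.0137), with 9 of 9 mice above either mean. FC12 mice, at 6.13, 6.27 and 6.36, lay above every FC4 mouse (5.97, 6.03 and 6.13). Groups without overlap were found for 0.419% of all probe sets in that comparison. The difference was 0.21 (SE 0.04, adjusted p = 0.00321). Against FC30 (5.93, 6.10 and 6.32) the difference of 0.17 did not pass (adjusted p = 0.128, 9 of 9 mice), with 1 FC30 mouse well above the rest of its group. Cry2, the other Cryptochrome, had group means between 9.10 and 9.18 and was called in neither course (adjusted p = 0.773 untrained, 0.255 trained).

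Nr1d2, the repressor of Arntl, had its lowest means near ZT3 and its highest at ZT15. Values ran from 8.61 over 8.65 to 8.79 in CC30, from 8.65 over 8.77 to 8.86 in CC4 and from 8.71 over 8.89 to 9.03 in CC12. The trained groups had 8.48, 8.64 and 8.86 in FC30, 8.69, 8.76 and 8.89 in FC4, and 8.75, 8.86 and 8.95 in FC12. CC4 mice thus lay between the other groups and overlapped both. CC12 was 0.23 above CC30 (SE 0.04, adjusted p = 0.00529) and FC12 0.23 above FC30 (SE 0.04, adjusted p = 0.00758), in 9 of 9 mice each. CC12 was 0.14 above CC4 (adjusted p = 0.0983, 8 of 9 mice), a call that was kept in 8 of 13 settings and lost, for example, without subtraction of the first component (adjusted p = 0.104). FC12 lay 0.10 above FC4 (adjusted p = 0.116). The dimmer Nr1d2 probe set, at a mean of 3.33 and the 9.16th percentile of all probe sets, was not called in either course (adjusted p = 0.881 and 0.862).

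Tef, an activator at D-boxes, was the only member whose ZT7 and ZT15 groups lay apart both with and without training. Its CC4 values ran from 8.21 over 8.38 to 8.47 and its CC12 values from 8.48 over 8.56 to 8.61. FC4 mice ran from 8.31 over 8.37 to 8.41 and FC12 mice from 8.45 over 8.53 to 8.58. In neither pair did the groups overlap, as was the case for 0.655% and 0.419% of all probe sets. CC12 was 0.20 above CC4 (SE 0.03, adjusted p = 0.00191) and FC12 0.16 above FC4 (SE 0.02, adjusted p = 0.00168). CC30 mice lay between, with 8.27, 8.46 and 8.52, and so did FC30 mice, with 8.25, 8.41 and 8.48. The steps from ZT3.5 to ZT15 were 0.11 in untrained mice (adjusted p = 0.0638, called in 10 of 13 settings) and 0.12 in trained mice (adjusted p = 0.0986, 8 of 13), each in 9 of 9 mice. Without the 6 arrays that stood apart they did not pass (adjusted p = 0.127 and 0.222).

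Hlf belongs to the same family as Tef and moved less. It had 9.36, 9.58 and 9.66 in CC30, 9.50, 9.58 and 9.62 in CC4, and 9.57, 9.67 and 9.72 in CC12. Its untrained course passed with adjusted p = 0.0906, a call that ended without the 6 arrays that stood apart (adjusted p = 0.176). Of the pairs only CC12 against CC4 was called, at 0.09 (SE 0.03, adjusted p = 0.0654, 8 of 9 mice). CC12 against CC30 was similar in size at 0.11 (SE 0.04), with adjusted p = 0.153. The trained course of Hlf had adjusted p = 0.211, with means of 9.57 in FC30, 9.54 in FC4 and 9.64 in FC12.

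Nfil3 encodes the repressor at the D-boxes that Tef and Hlf activate. It was high in FC30 mice, with 6.22, 6.43 and 6.47, and lower in FC4 (5.90, 6.11 and 6.44) and FC12 (5.92, 6.17 and 6.41). From FC30 to FC4 it fell by 0.31 (SE 0.06, 1.24-fold, adjusted p = 0.0348) and from FC30 to FC12 it fell by 0.22 (SE 0.05, adjusted p = 0.0719), in 8 of 9 mice each. The latter call was lost in 5 of 13 settings, among them a single fit over all 8 groups (adjusted p = 0.19). Untrained mice had 6.03, 6.22 and 6.49 in CC30, 5.76, 6.07 and 6.27 in CC4 and 5.89, 6.29 and 6.34 in CC12, and their course was not called (adjusted p = 0.523). FC30 lay 0.17 above CC30 (95% interval 0.05 to 0.30, 8 of 9 mice), with an unadjusted p of 0.01 and an adjusted p of 0.551 in limma, and the test of its course by training gave an adjusted p of 0.9.

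**Figure D2:**
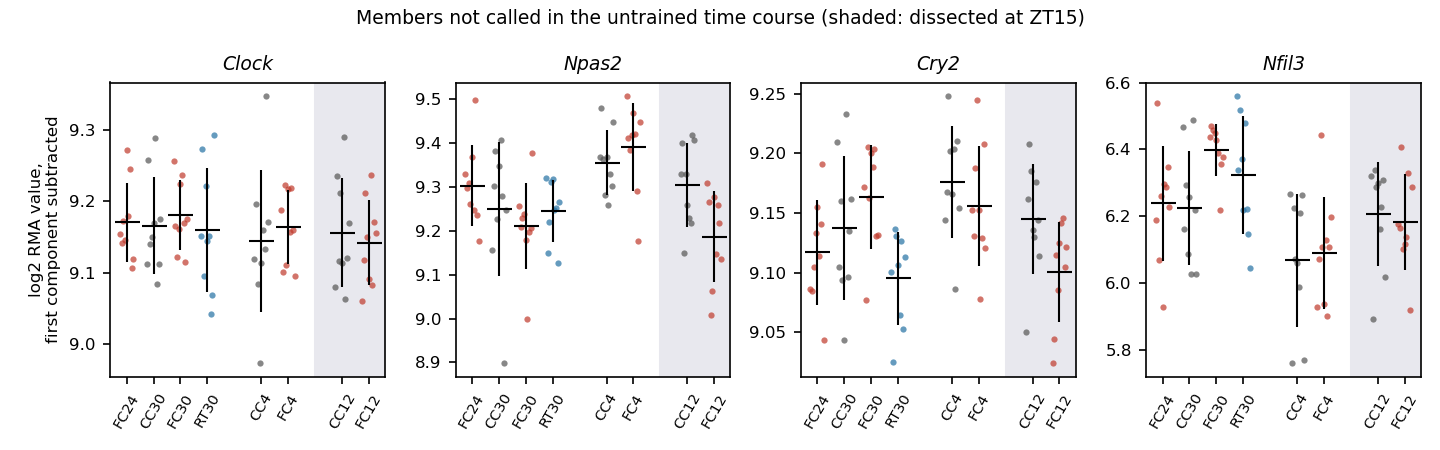
Log2 RMA values with the first component subtracted, for the 4 members not called in the untrained time course, in 72 mice. Points, lines and shading are as for the other members. The group means of Clock span 0.039 and those of Cry2 0.081, Npas2 is lowest in FC12 and highest in FC4, and Nfil3 is highest in FC30.

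No member was called between trained and untrained mice of the same time of day, where few probe sets of the array were called at all. The counts were 0 of 10 in FC30 against CC30 (0.256% of all probe sets called), in FC4 against CC4 (0.0%), in FC12 against CC12 (0.0%), in FC24 against CC30 (0.0%) and in RT30 against CC30 (0.278%). RT30 against FC24 (0.152%) and FC24 against FC30 (0.152%) held none either. At an unadjusted p under 0.05, limma found 1 member in FC30 against CC30 (Nfil3), 1 in FC12 against CC12 (Npas2, lower by 0.12) and 1 in FC24 against CC30 (Ciart, lower by 0.15). It found 0 in FC4 against CC4 and 0 in RT30 against CC30. FC24 against FC30 held 1 (Nfil3) and RT30 against FC24 0. Of all 35556 probe sets, 2405 had such a p in FC30 against CC30, 1442 in FC12 against CC12 and 1534 in FC24 against CC30. The count was 1902 in FC4 against CC4, 2456 in RT30 against CC30, 2806 in FC24 against FC30 and 2204 in RT30 against FC24. A count of 1 in 10 is thus near the share of the whole array. FC30, FC24 and RT30 share the CC30 mice as controls. The median size of the members' differences was 0.0282 in FC30 against CC30 (0.0373 over all probe sets), 0.0195 in FC4 against CC4 (0.0403) and 0.0333 in FC12 against CC12 (0.0331). The widest bounds of the 95% intervals over the 10 members lay 0.299 from no change in FC30, 0.196 in FC4, 0.218 in FC12, 0.294 in FC24 and 0.26 in RT30 against their controls. The course over the day also gave no called difference between trained and untrained mice, with 0 of 10 members against 0.0787% of all probe sets. At an unadjusted p under 0.05 in limma there were 0 members, and 2158 of all probe sets.

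**Figure D3:**
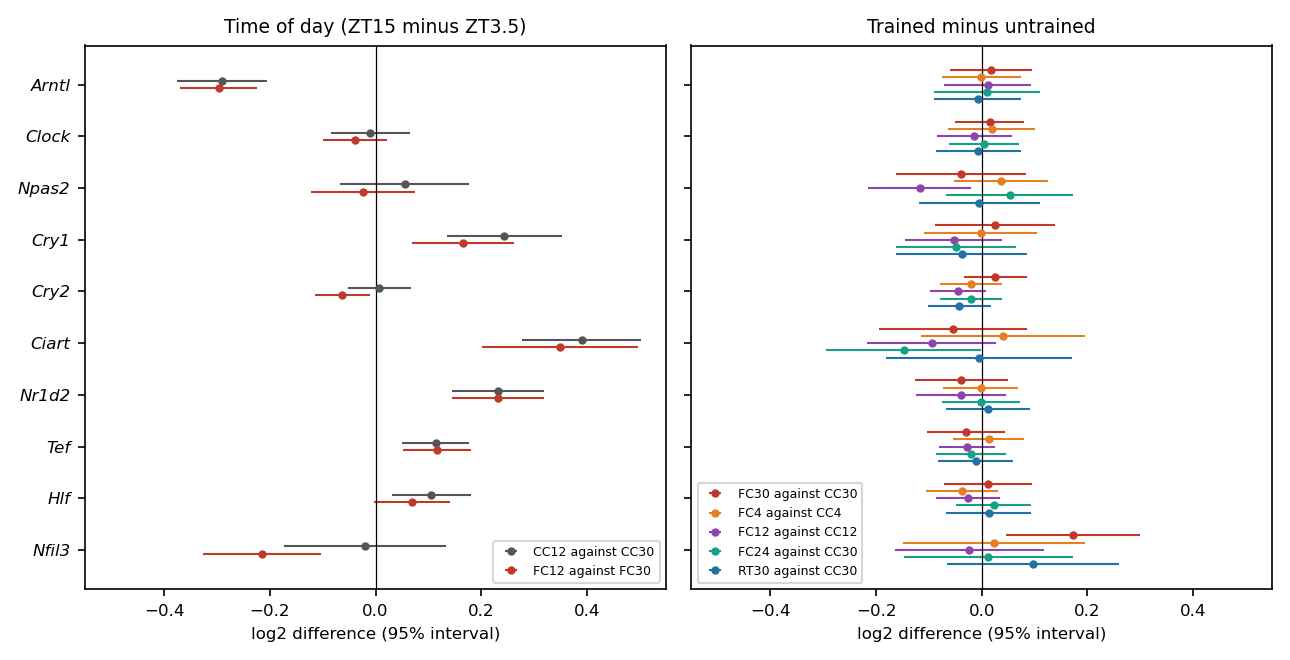
Log2 differences (x axis) of the 10 members with their 95% intervals from limma, for ZT15 minus ZT3.5 in untrained and trained mice (left) and for trained minus untrained mice (right). On the left Arntl lies near -0.29 and Ciart near 0.39 and 0.35, while on the right none of the differences passed the test.

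A cosine of 24 h was laid through each course to put the differences on a common scale of phase and amplitude. With 3 times it passes through the 3 means, so its shape is assumed and a peak can fall at an hour that was not sampled. Its amplitude can likewise reach beyond the levels measured. Among the called members, Arntl had its peak at ZT3.57 ± 1.19 (SE) with an amplitude of 0.146 ± 0.0183 in untrained mice, and at ZT3.0 ± 0.986 with 0.149 ± 0.0174 in trained mice. Ciart peaked at ZT11.9 ± 0.618 with 0.306 ± 0.0707, and after training at ZT10.9 ± 0.384 with 0.409 ± 0.0838. Its other probe set gave ZT10.8 ± 0.342 with 0.488 ± 0.0917 in untrained and ZT11.6 ± 0.551 with 0.378 ± 0.0888 in trained mice, so that trained and untrained differed in the opposite order on the 2 probe sets. For Nr1d2 the values were ZT13.5 ± 1.12 and 0.131 ± 0.0301 without training, and ZT12.4 ± 0.773 and 0.158 ± 0.0375 with it. Arntl and its repressor Nr1d2 thus lay on opposite sides of the day. Later in the dark came Cry1, at ZT17.7 ± 1.57 and ZT18.7 ± 1.08, and Tef, at ZT19.8 ± 0.571 and ZT19.0 ± 0.802, past the last time sampled. The amplitude was 0.154 ± 0.0415 for untrained and 0.135 ± 0.0365 for trained Cry1, and 0.153 ± 0.0332 and 0.103 ± 0.0228 for Tef. Hlf, called in untrained mice, had ZT16.1 ± 2.44 with an amplitude of 0.0544 ± 0.0139. Npas2 and Nfil3, called in trained mice only, had ZT9.07 ± 0.389 and ZT22.4 ± 0.345 with amplitudes of 0.243 ± 0.056 and 0.355 ± 0.0757. In a trained course time of day cannot be told apart from time since training, so these need not be daily phases. The highest and lowest trained means of Npas2 and Nfil3 lay only 0.20 and 0.31 apart, so these amplitudes reach beyond the levels measured.

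**Figure D4:**
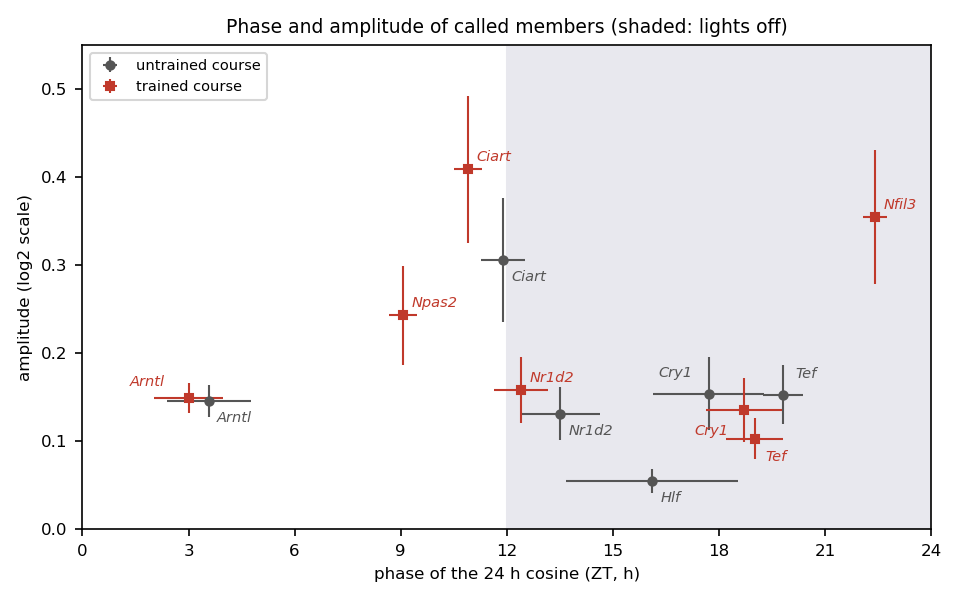
Phase (x axis, ZT in hours) and amplitude (y axis, log2 scale) of the 24 h cosine for members called in the untrained (grey circles) or trained (red squares) course, with standard errors, lights off shaded. Trained and untrained points of Arntl, Nr1d2, Cry1 and Tef lie close to each other, from Arntl at ZT3 to Tef at ZT19, and Ciart, here its brighter probe set, has the highest amplitudes of the 5 members called in both courses.

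Among mice of the same group, Nr1d2 and the brighter Ciart probe set moved together and Arntl lay opposite to Nr1d2, though neither relation held in every setting. Deviations from the group means were compared over 72 mice for 4 pairs, with 100000 permutations within groups, two-sided, and adjustment over the 4, with 0.1 as the threshold. Nr1d2 and Ciart had r = 0.33 (permutation p = 0.00686, adjusted 0.0274) and rho = 0.31 (permutation p = 0.0113, adjusted 0.0376). Without the 2 mice farthest from the median of Nr1d2, r was 0.30. With the other Ciart probe set, a check added after the data were seen, r was 0.12 (permutation p = 0.298, adjusted 0.397) and rho 0.17 (permutation p = 0.166, adjusted 0.221). Arntl and Nr1d2 had r = -0.26 (permutation p = 0.033, adjusted 0.066) and rho = -0.29 (permutation p = 0.0188, adjusted 0.0376), with r = -0.29 without 2 mice. Without subtraction of the first component their r was -0.24 and did not pass (adjusted permutation p = 0.113). For Arntl and Ciart r was -0.20 (permutation p = 0.106, adjusted 0.141) and rho -0.27 (permutation p = 0.0304, adjusted 0.0405), with r = -0.23 without 2 mice. That pair did not pass by r and passed by rho. Tef and Hlf showed no relation (r = -0.02, permutation p = 0.883, rho = -0.02, permutation p = 0.84, r without 2 mice -0.05). Both genes of a pair come from the same array and the same dissection.

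**Figure D5:**
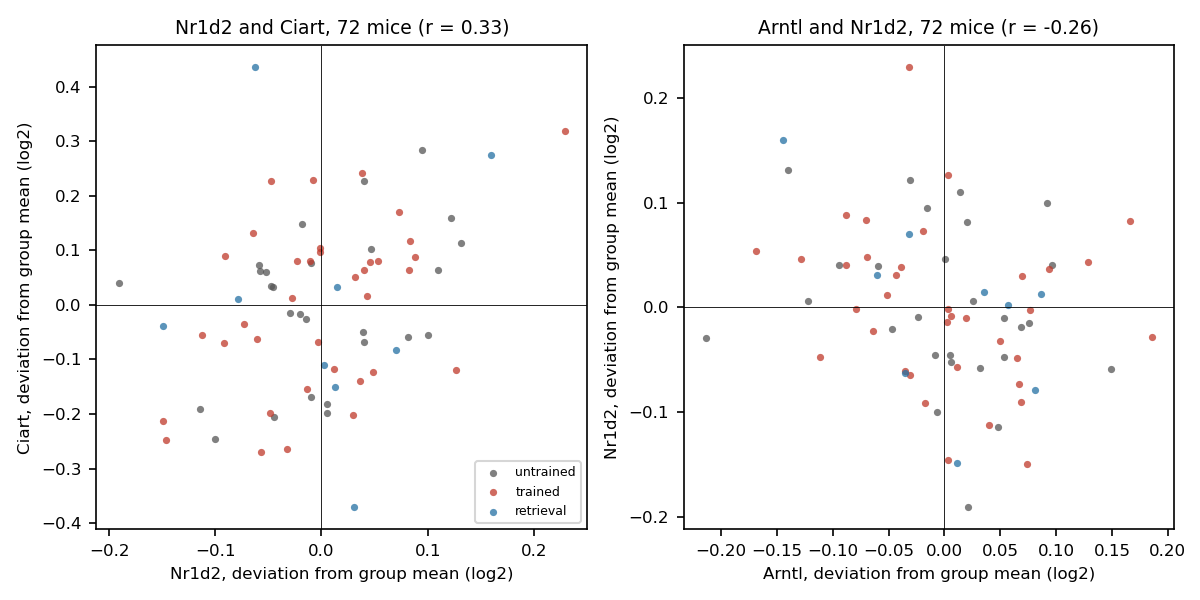
Deviations from the group mean (log2) of Nr1d2 and the brighter Ciart probe set (left) and of Arntl and Nr1d2 (right), 1 point for each of 72 mice. The left cloud rises with r = 0.33 and the right cloud falls with r = -0.26, both with wide scatter.

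Among the other clock genes, calls fell mostly between times of day, and Per1 was also called after training and retrieval. Of 22 further clock symbols 17 were carried alone by a probe set, and Nr1d1 and Dbp were not among them. In the untrained course 5 of 17 were called (Per1, Per2, Per3, Bhlhe41 and Fbxl21) and in the trained course 5 of 17 (Per2, Per3, Rorb, Bhlhe41 and Fbxl21). Bhlhe41, a repressor at E-boxes, was 0.28 higher in CC12 than in CC30 (adjusted p = 0.00953) and 0.30 higher in FC12 than in FC30 (adjusted p = 1.03e-04). Fbxl21, which marks Cryptochromes with ubiquitin, fell by 0.21 from CC4 to CC12 (adjusted p = 0.0055). Per1, a repressor that neuronal activity also induces, was the only gene of these 17 called in the test of time by training (adjusted p = 0.00781). It was 0.26 higher in FC30 than in CC30 (adjusted p = 0.0166) and 0.26 higher in RT30 than in CC30 (adjusted p = 0.0117), comparisons in which 0 of the 10 members was called. Of 12 genes driven by the clock in other tissues, 5 were called in the untrained course (Usp2, Id2, Ppara, Lonrf3 and Tspan4) and 4 in the trained one (Usp2, Id2, Pdk4 and Tspan4). Usp2, a ubiquitin protease, fell by 0.28 from CC4 to CC12 (adjusted p = 7.98e-04).

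The probe sets most like a called member were those with the smallest root mean square difference between the 8 centred group means, among 12287 candidates brighter than the median. For Arntl they were Rskr (0.0247), Akt2 (0.0255) and Creb5 (0.0284), where the Arntl means themselves spread by 0.12. Ciart was closest to 3 probe sets of Rbm3, a cold-inducible RNA-binding protein, with 0.0625, 0.0694 and 0.0731 beside a spread of 0.191. The other Ciart probe set was closest to the same 3, with 0.072, 0.0759 and 0.0816 beside 0.212. Nr1d2 was closest to Ddx50 (0.0249), Ncapd2 (0.0284) and Prodh (0.0304), and Cry1 to Slc10a7 (0.0188), Polk (0.0217) and Prdm15 (0.0223). For Tef they were Zfp462 (0.0101), Baz1b (0.0105) and Nbeal2 (0.0116), and for Hlf Htr1f (0.00862), Adcy6 (0.0101) and Dync2h1 (0.0105). The Hlf means themselves spread by only 0.04. None of the 3 near Hlf was called in the untrained course (limma adjusted p = 0.621, 0.267 and 0.212).

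The arrays were even in level and held the tissue named, with array medians from 5.82 to 5.88. Markers of hippocampal neurons, such as Prox1, Wfs1 and Zbtb20, had a mean log2 level between 9.58 and 9.64 in the 8 groups. Prox1 and Neurod2, 2 of the 8, were called in the trained course and were higher in FC12 than in FC4, and Neurod2 was higher in CC12 than in CC4. Some markers of other cell types moved with time of day. Opalin, of myelin, was called lower in CC12 than in CC30 and CC4, and in FC12 than in FC30. Of the 4 oligodendrocyte markers measured, it alone was called there. The largest difference among the 4 had a size of 0.618 in CC12 against CC30 and 0.446 in FC12 against FC30. Among the 10 members the largest were 0.39 and 0.349. In FC12 against FC4, Opalin and Cldn11 were called, 1 higher and 1 lower. The median difference of the 4 was -0.08 in CC12 against CC30 and 0.056 in FC12 against FC30. The mean of these 4 ran from 8.75 to 9.24 over CC12 mice and from 9.16 to 9.35 over CC30 mice. Of 4 endothelial markers 3 were called in the untrained course and 1 in the trained one. Pecam1 and Slco1a4 were called in CC12 against CC30 and in FC12 against FC4, each time 1 higher and 1 lower. Cldn5 was called lower in CC4 than in CC30, and also after retrieval, in RT30 against CC30 and against FC24. The mean of the 4 ran from 8.07 to 8.24 in CC12 and from 8.09 to 8.29 in CC30. Of 5 microglia markers Cx3cr1 was called in the untrained course, with a mean of the 5 from 7.44 to 7.65 in CC12 and from 7.54 to 7.67 in CC30. Of 5 astrocyte markers Aqp4 was called in the trained course, with a mean of the 5 from 9.28 to 9.41 in FC12 and from 9.34 to 9.49 in FC30. The part of these cell types in the members' differences was not tested, and in whole tissue fewer cells of a type and less RNA per cell cannot be told apart. Choroid plexus markers spread between mice, from 5.39 to 8.55 in their mean, and 0 of 7 was called in any of the 16 comparisons. Their mean was lowest in CC30 (6.15) and was 6.86 in CC12 and 6.79 in FC30. The median of the 7 differences was 0.55 in CC12 against CC30, with 1 at an unadjusted p under 0.05 in limma, and 0.41 in FC30 against CC30, with 5. In FC12 against FC30 the median was -0.33, of opposite sign to that in untrained mice. Of the 6 thalamus markers Rorb was called in the trained course, and their mean ran from 7.45 to 7.78 over all mice.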

How the data were processed

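Per the labels and the methods, the authors hybridised 72 arrays together, averaged 2 scans and summarised probes with RMA in Affymetrix Power Tools. The deposited values are log2 signals, background corrected and quantile normalized by the authors, and the number of arrays limits their precision. Groups came from the labels. The first principal component (17.4% of variance) was subtracted. The methods describe such a step after standardizing values on the mean. The share of variance they state for the component is larger, so it may not be the same one. Each comparison was fitted to its own arrays (18 for a pair, 27 for a course, 54 for time by training) with limma 3.58.1 in R 4.3.3, two-sided, and adjusted over 35556 probe sets. This adjustment stands in for the authors' local false discovery rates. Scripts were tested on simulated data. Python 3.11.15, numpy 2.4.6, scipy 1.17.1 and pandas 2.3.3 gave cosines and permutations, and matplotlib 3.10.9 the figures. Genes named are the 10 members, the called genes of the clock lists, markers, and the 3 probe sets most like each member called in the untrained course. Members and lists were chosen with earlier results of these data known. Of the symbols listed, 8 were not matched. Alternatives numbered 12, and the other Ciart probe set was added for correlations and cosines after the data were seen. Gene coordinates are not given, since the files name no build, and promoters are from RefSeq.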

Additional observations from a re-analysis of the deposited data

Results flagged for a closer look

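In 8 of 80 combinations of member and group, 1 mouse lay apart from the other 8, its gap to the nearest mouse over the group's range passing Dixon's critical value for 9 mice. Chance gives about 1 in 20 such groups. None of these mice was on the 6 arrays that stood apart on a principal component. The lowest value was apart for Arntl in CC30 (replicate 9, 7.358, nearest 7.541), Npas2 in CC30 (replicate 8, 8.898, nearest 9.156), Ciart in CC12 (replicate 5, 8.032, nearest 8.223) and Nfil3 in FC30 (replicate 7, 6.218, nearest 6.356). The highest was apart for Cry1 in FC30 (replicate 3, 6.32, nearest 6.127), Nr1d2 in FC30 (replicate 8, 8.857, nearest 8.668), Tef in RT30 (replicate 6, 8.561, nearest 8.458) and Hlf in FC4 (replicate 1, 9.719, nearest 9.58). The course over the day was called as different between trained and untrained mice for 0 of 10 members.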

How the results depend on the processing

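The 13 settings were the one reported and 12 alternatives. Of the values for single members, 493 kept their direction and, where tested, their side of the threshold, 40 fell short of it, and 3 cosine values of Ciart moved with its other probe set. With local false discovery rates, written here and more cautious than the adjustment, the members called were 1 in CC12 against CC30, 1 in FC12 against FC30, 0 in FC12 against FC4 and 0 in FC4 against FC30, where all probe sets gave 44, 99, 0 and 0. FC12 against FC30 had 3 members without subtraction of a component and 3 without the arrays that stood apart, and CC12 against CC4 had 3 with the component as a covariate. One fit over all 8 groups gave 4 in FC4 against FC30, with 478 probe sets in all against 212. The correlation of Arntl and Nr1d2 was -0.2354 (adjusted p = 0.113, permutation) without subtraction, and of Arntl and Ciart -0.2446 (adjusted p = 0.0861, permutation) without the arrays apart. With the other Ciart probe set the correlation of Nr1d2 and Ciart was 0.121 (adjusted p = 0.397, permutation). That of Tef and Hlf turned to 0.0031 with both leading components removed. The cause of these changes was not tested. Per the methods, the 9 mice of each group came from 9 independent conditioning experiments, run over 2 weeks. The labels do not say what a replicate number stands for, and same-numbered mice did not deviate together throughout: the median correlation of their residuals lay between -0.0397 and 0.113, and in 0 to 3 of 9 pairs did a mouse correlate best with its own number, with at most 5 of 9 pairs over 0.1 in a comparison (FC4 against CC4, for example, with a highest of 0.511). The numbers were therefore not taken to pair the samples, though a weak pairing is possible. With the replicate number as a block, FC12 against FC30 called 2 members and 239 probe sets in place of 487, and CC12 against CC30 called 705 in place of 1243. CC4 against CC30, with 26 probe sets called, had 0 with the block and 108 in a single fit of all groups.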
